A study of Eriobotrya japonica with 9 samples.

Results

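Plant immune signaling genes were examined in the leaves of loquat (Eriobotrya japonica), an evergreen fruit tree of the rose family. The 130 members were the genes that the deposited annotation places on the KEGG map of plant-pathogen interaction, that it places on none of 4 further maps (plant hormone signal transduction, the plant MAPK signaling pathway, protein processing in the endoplasmic reticulum and fatty acid elongation), and that had an FPKM of 1 or more in at least 3 of the 9 libraries. They were 130 of the 43996 genes of the table and 130 of the 23641 genes tested. The map held 307 genes in all, of which 98 were also on one of the other 4 maps and 79 stayed below the FPKM limit. Values on both sides of the limit were close, as Ej00015187 was just inside it with a third-highest FPKM of 1.03 and Ej00048513 just outside with 0.970. Of the 130 members, 117 reached the limit in all 9 libraries, and 1, Ej00075874, reached it only through the 3 ST libraries, so that its calls in ST against CK and MTST against ST, counted with the others, were partly fixed by the limit.

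The 3 groups of seedlings were compared, each with 3 leaf libraries, which the study describes as biological replicates for the salt experiment. MTST plants had their roots irrigated with 150 µmol/L melatonin and were then exposed to 200 mmol/L NaCl, ST plants were first watered and then exposed to the same NaCl concentration, and CK plants received water. Leaves were taken on day 10, from plants raised from seed by tissue culture and moved outdoors. No group received melatonin without NaCl, so the effect of melatonin alone was not measured, and the labels do not say how many seedlings went into a library.

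Plants sense microbes through receptor kinases at the plasma membrane, which bind molecules such as chitin from fungal walls, and through intracellular receptors that sense the action of microbial effectors. Both routes are known to raise calcium in the cytosol through plasma membrane channels. Calcium-binding proteins of the calmodulin kind and calcium-dependent protein kinases read that signal and pass it on to transcription factors, to the oxidative burst and to the hypersensitive response, a local cell death. Calcium is also an early messenger of salt stress in plants, and melatonin is an indoleamine that plants make and that is widely studied for its effect on stress tolerance.

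Levels are given as normalized TPM, that is FPKM rescaled to TPM, which gives every library the same total, and then divided by a median-of-ratios factor of the library, and differences as log2 of normalized TPM + 1, which understates the changes of weakly expressed genes. Errors of levels are SD (n = 3), and those of log2 differences are standard errors of the limma fit. A gene was called where limma gave it an adjusted p (Benjamini-Hochberg, over all 23641 genes tested) no higher than 0.05. Libraries held 13048770 to 14468499 reads, and the members 99968 to 136037 reads per library, with a median of 301 to 378 reads per member. As a check of the tissue, 21 of 69 photosynthesis genes and 15 of 28 antenna protein genes were among the 100 most abundant genes, as in a green leaf. The photosynthesis genes took 5.10% to 5.56% of all TPM in MTST, 3.63% to 4.06% in ST and 6.45% to 6.91% in CK. The 10 most abundant genes took 9.34% to 10.3% of all TPM in MTST, 5.55% to 6.09% in ST and 11.2% to 11.6% in CK, and with such a shift plain TPM moved the median of all genes by 0.41 for ST against CK, against 0.01 after the median-of-ratios factors. Counts under plain TPM are therefore given beside the main ones.

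By their annotated GO terms, the members fell into 28 grouped as calcium-binding, 28 calcium-dependent protein kinases, 12 receptor kinases, and 10 channels and related membrane potential genes. The rest were 4 transcription factors, 1 glycerol kinase, 20 other annotated genes and 27 genes without a GO term. The calcium-binding role held 26 members with the term calcium ion binding, and otherwise members with the term detection of calcium ion in its place, such as Ej00040557. The annotation thus described signaling through calcium and kinases more than immune receptors, since 12 members carried the term defense response, 3 carried plant-type hypersensitive response, 3 carried chitin binding, and 0 carried ADP binding, a property of many intracellular immune receptors. The term response to abscisic acid, the hormone of drought and salt responses, was held by 19 members, 18 of them calcium-dependent protein kinases. Levels spanned a mean of 1.19 to 778 normalized TPM over the 9 libraries (median 19.2, against 12.6 for all genes tested). The files do not pair the identifiers with gene names, so members are given by identifier and annotated function.

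In salt-treated leaves the members fell more often than they rose. For ST against CK, 46 members fell and 18 rose, or 35.4% and 13.8% of 130, whereas 23.4% of all genes tested fell and 22.8% rose. The median log2 difference of the members was -0.13, against 0.01 over all genes tested. With plain TPM, 28 members fell and 56 rose, where 10.6% of all genes fell and 52.8% rose, and the median of the members was 0.29, against 0.41 over all genes. Without the 28 calcium-binding members the balance was nearer to that of all genes. Of those 102, 27 fell and 16 rose, or 26.5% and 15.7% (median -0.07), and with plain TPM 13.7% fell and 51.0% rose. All 18 members that rose also rose with plain TPM, and 28 of the 46 that fell also fell. Plain TPM moves all genes upward in this comparison, so the rises were kept almost by construction and their count is no separate support. Of the 46 falls, 41 were called whichever single library was left out, and 13 of the 18 rises. With a fold change of at least 2 in addition, 26 members fell and 5 rose, where 7.22% of all genes fell and 8.41% rose. The libraries of ST lay wholly below those of CK in 50 members and wholly above in 21, where 27.3% and 26.9% of all genes tested did so.

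The falls were counted by level. Among members with a mean level of 100 normalized TPM or more, 18 of 24 fell and 2 rose in ST against CK, with a median log2 difference of -1.01. Among all genes tested at that level, 54.5% fell and 15.4% rose, with a median of -0.39, and with plain TPM the split at that level was 17 falls and 5 rises for the members, beside 36.2% and 38.9% of all genes. Of the 33 members under a mean level of 10, 6 fell and 7 rose, beside 12.5% and 25.2% of all genes tested at that level, and with plain TPM 2 fell and 13 rose, beside 5.74% and 49.5%. How much of the members' fall goes with their level was not tested.

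**Figure D1:**
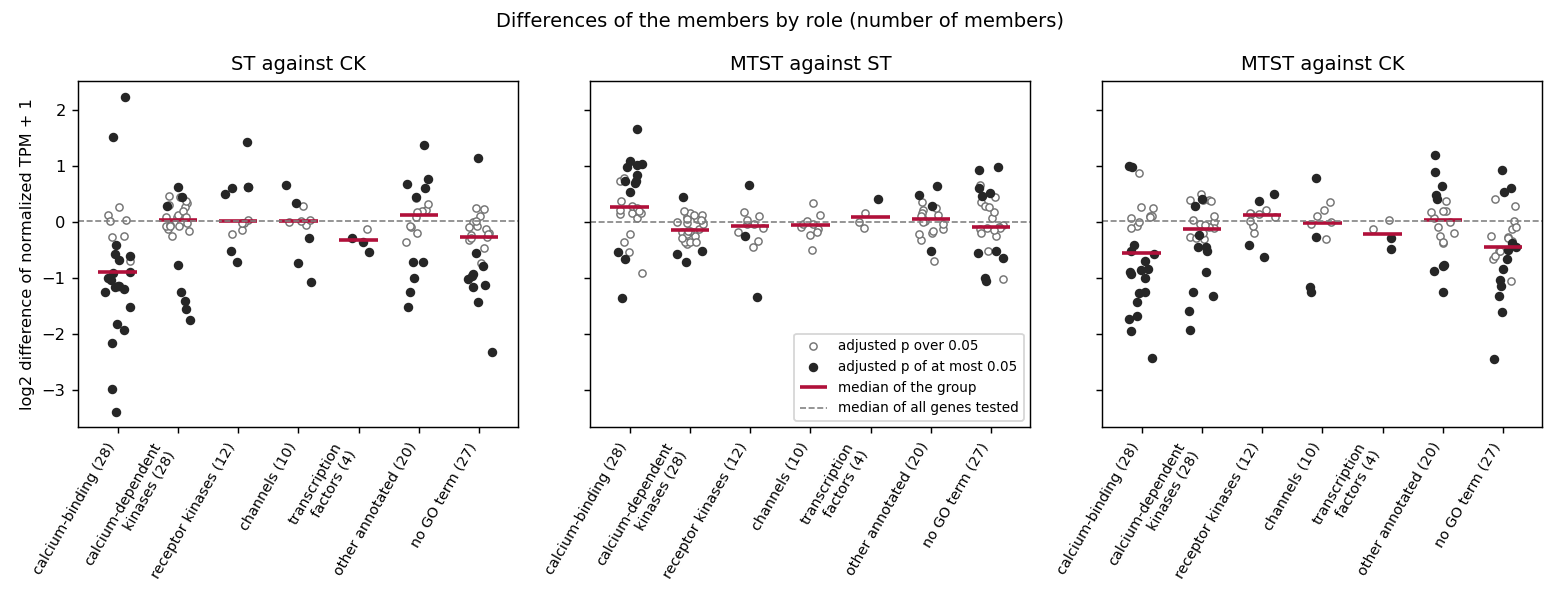
Log2 difference of normalized TPM + 1 (y axis) of each member by role (x axis, with the number of members) for ST against CK, MTST against ST and MTST against CK, with filled points for called genes, red bars at the median of the role and a dashed line at the median of all genes tested. The calcium-binding members sit lowest in ST against CK (median -0.90) and above the line in MTST against ST (median 0.25).

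The calcium-binding members, annotated to bind or detect calcium ions, fell most often of the larger roles. In ST against CK, 19 of 28 fell and 2 rose (18 and 1 of the 26 with the term calcium ion binding). Of all genes tested, 23.4% fell and 22.8% rose. The median log2 difference of the calcium-binding members was -0.90, with a range of -3.40 to 2.23. With plain TPM, 14 of the 28 fell and 4 rose (median -0.46), where 10.6% of all genes fell and 52.8% rose. With 1 library left out, 17 to 20 of the 28 fell. Their summed level was 2555 ± 198 normalized TPM in MTST, 1957 ± 89.5 in ST and 4707 ± 83.2 in CK. These genes were short, with a median length of 574.5 bases against 1581 over all genes tested. Of the 22 under 700 bases, 17 fell in ST against CK and 2 rose, whereas of all 2766 tested genes under 700 bases 21.7% fell and 21.1% rose. All 8 calcium-binding members with a mean level of 100 or more fell, beside 52.1% of the 311 tested genes under 700 bases at that level, and with plain TPM all 8 fell too, beside 36.7%. Other genes annotated with calcium ion binding, outside the map, did not show such a balance. Of these 74, 21 fell and 17 rose, or 28.4% and 23.0% (median 0.11). With plain TPM, 11 fell and 38 rose, or 14.9% and 51.4%.

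Ej00019385, annotated with calcium ion binding alone, had the largest fall of any member, with 46.3, 51.7 and 46.2 in MTST, 10.8, 19.3 and 15.01 in ST, and 172, 167 and 152 in CK, all in normalized TPM. The groups did not overlap, and MTST lay between ST and CK. The log2 differences were -3.40 ± 0.16 (adjusted p = 4.81e-07) for ST against CK, 1.65 ± 0.16 (adjusted p = 0.000149) for MTST against ST and -1.75 ± 0.16 (adjusted p = 5.29e-05) for MTST against CK. Ej00068337, whose annotation adds the response to ozone, stood at 214, 143 and 128 in MTST, 82.2, 73.7 and 73.3 in ST, and 576, 607 and 650.4 in CK. Every MTST library was above the ST libraries and below the CK libraries. Its log2 differences were -2.98 ± 0.16 (adjusted p = 7.77e-07) for ST against CK, 1.04 ± 0.16 (adjusted p = 0.0014) for MTST against ST and -1.95 ± 0.16 (adjusted p = 2.8e-05) for MTST against CK. Ej00027061 had 26.4, 24.1 and 21.99 in MTST, 10.1, 10.7 and 11.7 in ST, and 43.4, 46.7 and 42.4 in CK, with log2 differences of -1.93 ± 0.10 (adjusted p = 5.38e-07) for ST against CK and 1.08 ± 0.10 (adjusted p = 8.87e-05) for MTST against ST. Ej00049267 had 25.9, 22.1 and 21.6 in MTST, 13.1, 11.2 and 8.91 in ST, and 24.5, 21.8 and 23.1 in CK. In this gene the libraries of MTST and CK overlapped (log2 difference 0.00 ± 0.13, adjusted p = 0.997), while the log2 difference was -1.01 ± 0.13 (adjusted p = 0.000188) for ST against CK and 1.01 ± 0.13 (adjusted p = 0.000586) for MTST against ST.

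The most abundant calcium-binding members were Ej00021700 and Ej00003871, which with Ej00022724 carry the term defense response to fungus. Ej00021700 had 594, 584 and 506 in MTST, 508, 417 and 468 in ST, and 1040.0, 1132 and 962 in CK. It was lower in ST than in CK, with a log2 difference of -1.17 ± 0.11 (adjusted p = 2.22e-05), while MTST and ST libraries overlapped, with a difference of 0.27 ± 0.11 (adjusted p = 0.0943) that did not pass. Ej00003871 had 482, 457 and 418 in MTST, 278, 248 and 294 in ST, and 586, 634 and 589 in CK, with -1.14 ± 0.10 (adjusted p = 8.96e-06) for ST against CK and 0.73 ± 0.10 (adjusted p = 0.00056) for MTST against ST. Ej00022724, the last of these defense-annotated genes, also fell, with 248, 295 and 239.6 in MTST, 222, 233 and 249.9 in ST, and 362, 363 and 404 in CK (-0.68 ± 0.10, adjusted p = 0.000365, for ST against CK). The groups ST and CK did not overlap in any of the 3, all of which stayed called with plain TPM. Ej00069613 had 327, 294 and 299 in MTST, 169.8, 140.3 and 159 in ST, and 565, 572 and 535 in CK, with -1.83 ± 0.09 (adjusted p = 5.38e-07) in ST against CK and 0.97 ± 0.09 (adjusted p = 0.000116) in MTST against ST. The pair annotated with the response to wounding, Ej00016647 and Ej00073462, fell in ST against CK as well. Ej00016647 stood at 2.30, 0.895 and 0.545 in MTST, 3.73, 2.78 and 2.64 in ST, and 7.18, 7.70 and 20.9 in CK, and its lowest values were those of MTST, with -2.44 ± 0.38 (adjusted p = 0.000969) for MTST against CK.

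The opposite direction was rare among the calcium-binding members. Ej00040557, annotated with the detection of calcium ions, had 3.94, 4.96 and 8.85 in MTST, 7.499, 30.3 and 17.3 in ST, and 2.96, 2.78 and 2.15 in CK, and was the member with the largest rise in ST against CK at 2.23 ± 0.41 (adjusted p = 0.00152). The ST libraries spread widely but lay above all CK libraries. Its difference for MTST against ST of -1.36 ± 0.41 (adjusted p = 0.0331) was lost without any of MTST replicates 1 and 2 and ST replicates 2 and 3 (adjusted p = 0.0827 to 0.112). Ej00032889 had 4.10, 1.28 and 1.36 in MTST, 2.28, 3.97 and 4.14 in ST, and 0.244, 0.999 and 0.472 in CK, and rose by 1.505 ± 0.33 (adjusted p = 0.00434) in ST against CK, at a level where the groups rest on few reads. Levels of these genes were low in every group beside those of the abundant members that fell.

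**Figure D2:**
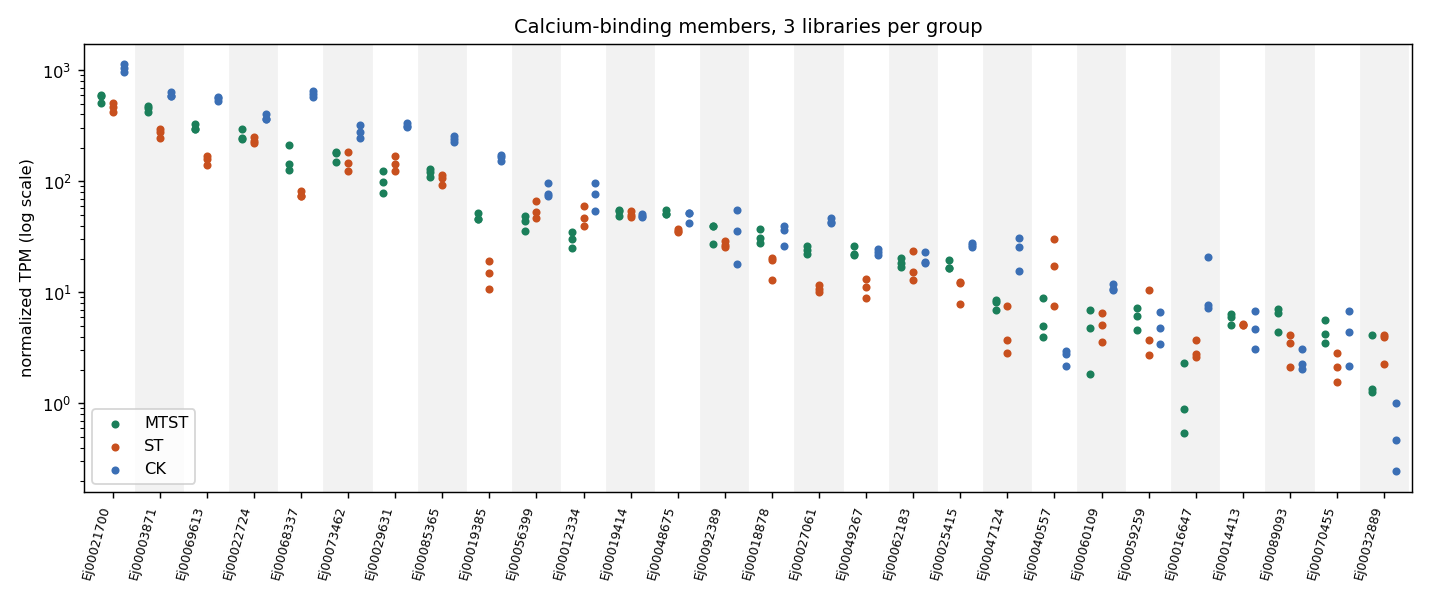
Normalized TPM on a log axis (y) of the 28 calcium-binding members (x, ordered by mean level), with 1 point for each of the 3 libraries of MTST, ST and CK. The 10 genes of highest mean level have all CK points above all ST points, and Ej00040557 and Ej00032889 have all ST points above all CK points.

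The calcium-dependent protein kinases, which carry a kinase domain whose activity calcium controls, gave a different picture. For ST against CK, 20 of 28 did not pass the test, 5 fell and 3 rose, with a median log2 difference of 0.03. Of all genes tested, 23.4% fell and 22.8% rose. The 5 falls were called under both scalings and whichever library was left out. They also passed in MTST against CK. With plain TPM, 18 of the 28 rose for ST against CK, where 52.8% of all genes did. The summed level of the 28 was 761 ± 26.6 in MTST, 800.2 ± 56.0 in ST and 1299 ± 144 in CK. Most of the lower sum in ST lay in Ej00023152 (mean 160 in ST and 386 in CK), Ej00003812 (72.7 and 250) and Ej00006333 (99.4 and 168). Ej00003812 had 105, 93.5 and 97.8 in MTST, 76.3, 72.2 and 69.6 in ST, and 262, 277 and 210.4 in CK. All ST and MTST libraries were below all CK libraries, with -1.76 ± 0.11 (adjusted p = 1.34e-06) for ST against CK and -1.32 ± 0.11 (adjusted p = 2.34e-05) for MTST against CK. Its rise of 0.44 ± 0.11 (adjusted p = 0.0128) in MTST against ST was lost without MTST replicate 1 (adjusted p = 0.0514) or ST replicate 3 (adjusted p = 0.0513). That rise was also not called with plain TPM (log2 difference 0.20, adjusted p = 0.179). Ej00023152, which shares its protein kinase C term with Ej00003812, had 179, 147 and 154 in MTST, 182, 142 and 155 in ST, and 411, 419 and 327 in CK, and differed by -1.27 ± 0.13 (adjusted p = 3.29e-05) for ST against CK. MTST and ST could not be separated in that gene (0.00 ± 0.13, adjusted p = 0.984).

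Ej00079418 had 13.4, 10.5 and 13.4 in MTST, 18.4, 15.2 and 15.4 in ST, and 48.02, 59.3 and 43.7 in CK. It was lowest in MTST, with libraries that did not overlap those of ST. The log2 differences were -1.56 ± 0.14 (adjusted p = 1.36e-05) for ST against CK, -0.37 ± 0.14 (adjusted p = 0.0725) for MTST against ST and -1.93 ± 0.14 (adjusted p = 1.37e-05) for MTST against CK. Ej00006333 fell by 0.77 ± 0.12 (adjusted p = 0.000437) in ST against CK, with 99.4 ± 17.6 in ST and 168 ± 9.28 in CK. Ej00026819 fell by 1.41 ± 0.18 (adjusted p = 0.000142), with 2.64 ± 0.323 in ST and 8.80 ± 1.96 in CK. The 3 kinases that rose did so by little, led by Ej00062076 with 5.60, 5.55 and 6.24 in ST, against 3.36, 3.60 and 3.30 in CK (0.62 ± 0.13, adjusted p = 0.00297). The other rises were Ej00047164 at 0.44 ± 0.15 (adjusted p = 0.0378), which was lost without any of ST replicates 1, 2 and 3 and CK replicates 1 and 3 (adjusted p = 0.0618 to 0.109), and Ej00093345 at 0.28 ± 0.08 (adjusted p = 0.0166), which was lost without ST replicate 2 or CK replicate 1 (adjusted p = 0.0589 and 0.0607). Without CK replicate 1, the count of kinases that rose was 1. Ej00056780 was one of the 3 kinases that fell in MTST against ST (1 without MTST replicate 2 or 3), with 3.47, 4.37 and 3.80 in MTST, 8.73, 7.18 and 5.58 in ST, and 5.25, 6.84 and 3.31 in CK. Its difference of -0.73 ± 0.22 (adjusted p = 0.0348) was lost without MTST replicate 1, 2 or 3 or ST replicate 1 or 2 (adjusted p = 0.0596 to 0.106).

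The receptor kinases, which span the plasma membrane and sense ligands outside the cell, showed rises as well as falls. For ST against CK, 5 of 12 rose, 2 fell and 5 did not pass, with a median log2 difference of 0.00, where 22.8% of all genes rose and 23.4% fell (median 0.01). With plain TPM 9 rose and 0 fell (median 0.44), where 52.8% of all genes rose and 10.6% fell (median 0.41). The 5 rises include Ej00075874, whose selection is given above. With 1 library left out, 4 to 5 rose and 2 fell. All 5 rises, that of Ej00075874 included, were among the 6 receptor kinases that carry the term protein kinase binding. That term was not among the planned roles, so this is a description, with no test. Ej00015588, the most abundant receptor kinase, had 62.8, 64.7 and 64.2 in MTST, 75.5, 80.7 and 73.1 in ST, and 51.7, 48.9 and 47.4 in CK. The order of the groups was ST, then MTST, then CK, with no overlap between them. The log2 differences were 0.62 ± 0.07 (adjusted p = 7.83e-05) for ST against CK, -0.25 ± 0.07 (adjusted p = 0.0249) for MTST against ST and 0.37 ± 0.07 (adjusted p = 0.00342) for MTST against CK, of which that of MTST against ST was lost without MTST replicate 1, 2 or 3 or ST replicate 2 (adjusted p = 0.0555 to 0.0781). Ej00018096 had 24.7, 23.996 and 20.2 in MTST, 20.7, 28.9 and 25.8 in ST, and 15.5, 13.3 and 19.3 in CK, and differed by 0.62 ± 0.16 (adjusted p = 0.00877) for ST against CK. Ej00075874 was under 1 normalized TPM in MTST and CK, with 0.549, 0.570 and 0.416 in MTST, 4.27, 1.91 and 2.67 in ST, and 0.654, 0.468 and 0.190 in CK. It is the member that reached the FPKM limit only in the 3 ST libraries, so its high ST values were part of its selection, and they are given as a description, with no test.

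Of the 3 receptor kinases with the term chitin binding, 2 rose and 1 did not pass. Ej00038001 rose by 0.60 ± 0.16 (adjusted p = 0.0111) in ST against CK, with 19.8, 18.9 and 23.3 in MTST, 22.6, 32.95 and 31.8 in ST, and 18.4, 21.7 and 16.3 in CK. Ej00038070 rose by 0.49 ± 0.17 (adjusted p = 0.0383), a call lost without any of ST replicates 2 and 3 and CK replicates 2 and 3 (adjusted p = 0.052 to 0.127), and its ST and CK libraries overlapped. Ej00054533 had a difference of -0.03 ± 0.13 (adjusted p = 0.883). The receptor kinases that fell were Ej00034484 at -0.72 ± 0.15 (adjusted p = 0.0028) and Ej00085840 at -0.52 ± 0.10 (adjusted p = 0.00228), neither of which was called with plain TPM. Ej00085840 had 23.2, 21.4 and 21.3 in MTST, 13.01, 14.998 and 12.6 in ST, and 20.4, 21.3 and 17.8 in CK, so that MTST was near CK and above ST by 0.66 ± 0.10 (adjusted p = 0.00131).

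**Figure D3:**
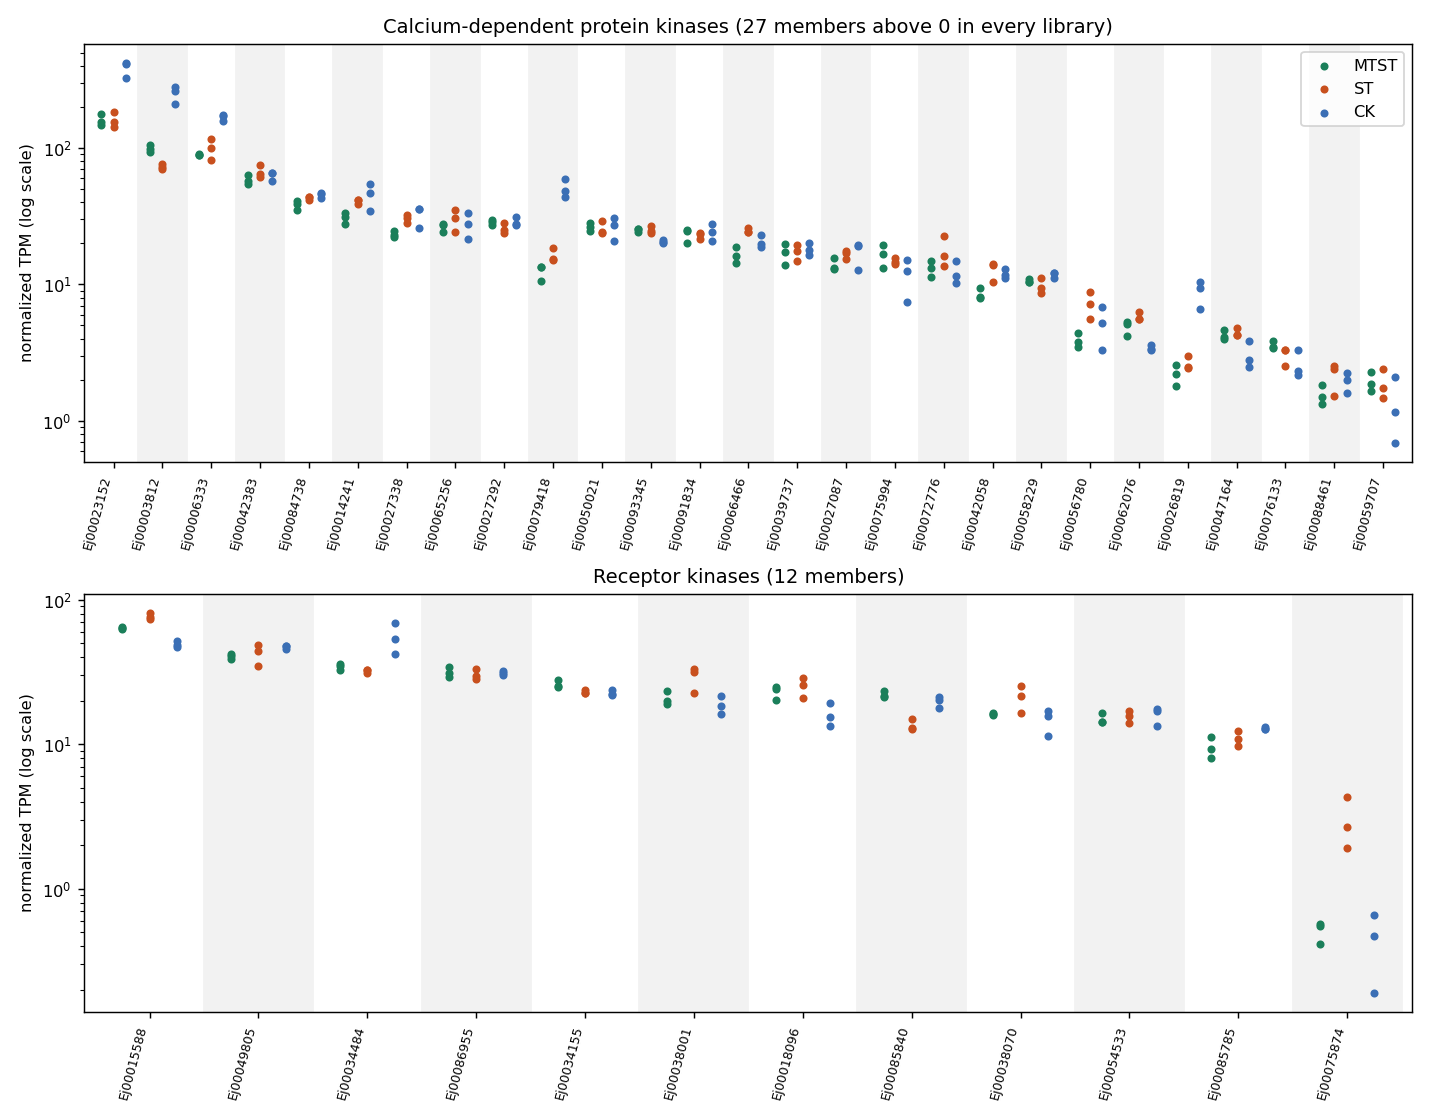
Normalized TPM on a log axis (y) of the calcium-dependent protein kinases (upper panel, the 27 of 28 above 0 in every library) and the 12 receptor kinases (lower panel), ordered by mean level, with 1 point for each of the 3 libraries of MTST, ST and CK. The CK points stand apart above the others in Ej00023152, Ej00003812, Ej00006333, Ej00079418 and Ej00026819, and the ST points stand above the others in Ej00015588 and Ej00075874.

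The role of channels and membrane potential held 10 genes. Of these, 7 carried ion channel or ion transport terms, which cover the passage of cations such as calcium and potassium across the membrane. The rest were placed here by potassium channel or membrane potential terms. Of the 10, 3 fell and 2 rose in ST against CK. With plain TPM 1 fell and 7 rose. Of all genes tested, 23.4% fell and 22.8% rose, and 10.6% fell and 52.8% rose with plain TPM. Ej00006677, annotated with the regulation of membrane potential, fell under both scalings, with 30.7, 27.3 and 28.1 in MTST, 36.2, 28.9 and 27.3 in ST, and 68.96, 71.1 and 56.7 in CK and a log2 difference of -1.07 ± 0.12 (adjusted p = 7.38e-05) for ST against CK. Ej00029805, a voltage-gated potassium channel by its terms, had 19.3, 16.2 and 17.4 in MTST, 32.6, 21.4 and 23.5 in ST, and 45.04, 51.7 and 34.6 in CK. It was lower than CK in both salt-treated groups, with log2 differences of -1.25 ± 0.17 (adjusted p = 0.000495) in MTST and -0.74 ± 0.17 (adjusted p = 0.00602) in ST, although the ST difference was not called with plain TPM (log2 difference -0.30, adjusted p = 0.169). The cyclic nucleotide-gated channel Ej00046705 had 38.3, 37.6 and 37.1 in MTST, 36.9, 43.3 and 43.9 in ST, and 34.7, 34.6 and 28.3 in CK, and rose by 0.34 ± 0.10 (adjusted p = 0.021) in ST against CK, which was lost without any of ST replicates 2 and 3 and CK replicate 3 (adjusted p = 0.0613 to 0.0803). Ej00045353, which carries the same cyclic nucleotide-gated terms, differed by -0.29 ± 0.09 (adjusted p = 0.0218) in the other direction, a call lost without ST replicate 2 or 3 or CK replicate 1 or 2 (adjusted p = 0.0604 to 0.0824), and with plain TPM its log2 difference was 0.15 (adjusted p = 0.178). In MTST against ST, 0 of the 10 passed with limma, where 1 rose and 1 fell at an unadjusted p of 0.05, and with limma-voom on recovered reads 1 rose and 1 fell at the adjusted threshold.

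The 4 transcription factors, which bind DNA and switch target genes, showed small differences. Ej00055577 had 19.1, 19.2 and 18.04 in MTST, 14.8, 12.998 and 13.9 in ST, and 20.7, 22.5 and 18.97 in CK, and ST lay below both other groups (-0.54 ± 0.09, adjusted p = 0.00107, for ST against CK and 0.41 ± 0.09, adjusted p = 0.0102, for MTST against ST). Ej00073532 and Ej00089065 differed by -0.37 ± 0.13 (adjusted p = 0.0353) and -0.29 ± 0.09 (adjusted p = 0.0261) for ST against CK. The call of Ej00073532 was lost without any of ST replicates 1 and 3 and CK replicates 1, 2 and 3 (adjusted p = 0.0533 to 0.113), and that of Ej00089065 without any of ST replicates 2 and 3 and CK replicates 1 and 2 (adjusted p = 0.0506 to 0.0971), so that the count of 3 falls went to 1 without ST replicate 3, CK replicate 1 or CK replicate 2. With plain TPM the log2 differences for ST against CK were -0.12 for Ej00055577 (adjusted p = 0.323), 0.01 for Ej00073532 (adjusted p = 0.945) and 0.14 for Ej00089065 (adjusted p = 0.236). For MTST against ST, 0 of the 4 were called with plain TPM, so the rise of Ej00055577 was not called there.

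Of the 20 other annotated members, 5 rose and 5 fell in ST against CK, where 22.8% and 23.4% of all genes tested did. With plain TPM 11 rose and 3 fell, where 52.8% and 10.6% of all genes did. The pair of cysteine-type endopeptidases, proteases that carry the terms defense response and response to salt stress, rose under salt in both treated groups. Ej00009734 had 245, 290.3 and 236 in MTST, 208, 256 and 244 in ST, and 128, 136 and 152 in CK. All libraries of MTST and ST were above all CK libraries, while MTST and ST overlapped. The log2 differences were 0.76 ± 0.11 (adjusted p = 0.000391) for ST against CK and 0.88 ± 0.11 (adjusted p = 0.000301) for MTST against CK. Ej00052827 had 148, 166 and 140.3 in MTST, 152, 159 and 156 in ST, and 114, 112 and 114 in CK, with 0.45 ± 0.08 (adjusted p = 0.00104) for ST against CK and 0.41 ± 0.08 (adjusted p = 0.00291) for MTST against CK. Of the 3 members with the term plant-type hypersensitive response, 1 rose and 1 fell. Ej00032632 had 14.8, 13.2 and 18.1 in MTST, 17.3, 18.6 and 16.1 in ST, and 6.99, 7.68 and 4.20 in CK, an increase of 1.36 ± 0.19 (adjusted p = 0.000252) in ST against CK and 1.19 ± 0.19 (adjusted p = 0.00105) in MTST against CK, the largest rise of any member in the last comparison. Ej00054337 had 33.1, 24.98 and 25.8 in MTST, 44.6, 36.9 and 40.4 in ST, and 67.8, 57.6 and 78.1 in CK, with -0.72 ± 0.14 (adjusted p = 0.00189) for ST against CK (not called with plain TPM) and -1.25 ± 0.14 (adjusted p = 0.000128) for MTST against CK. Ej00053684 differed by -0.36 ± 0.18 (adjusted p = 0.135) in ST against CK.

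A pair of members annotated to the chloroplast thylakoid membrane and the apoplast fell in salt-treated leaves and was less low with melatonin. Ej00025702, the member of highest mean level, had 693, 661 and 680.02 in MTST, 492, 482 and 483 in ST, and 1151, 1148 and 1209 in CK. Its log2 differences were -1.27 ± 0.08 (adjusted p = 1.83e-06) for ST against CK, 0.48 ± 0.08 (adjusted p = 0.00209) for MTST against ST and -0.79 ± 0.08 (adjusted p = 8.8e-05) for MTST against CK. Ej00068210 had 323, 308 and 308 in MTST, 201, 195 and 203 in ST, and 587, 607 and 539 in CK, with log2 differences of -1.52 ± 0.08 (adjusted p = 5.86e-07) for ST against CK, 0.65 ± 0.08 (adjusted p = 0.00034) for MTST against ST and -0.88 ± 0.08 (adjusted p = 3.71e-05) for MTST against CK. In both genes the 3 groups did not overlap, and MTST lay between ST and CK. The photosynthesis genes as a list moved in the same order, as given above, and their part in these values was not tested. Of the 4 members with lipase activity and homodimerization terms, Ej00026692 was the most abundant. It had 405, 343 and 357 in MTST, 394, 254 and 303 in ST, and 652, 677 and 556 in CK, and was lower in ST than in CK, with a log2 difference of -1.004 ± 0.15 (adjusted p = 0.000469). Ej00026517, with the same terms, had 19.9, 25.1 and 27.005 in MTST, 24.04, 16.98 and 20.7 in ST, and 16.3, 16.4 and 12.3 in CK, and was higher in MTST than in CK by 0.64 ± 0.16 (adjusted p = 0.0121), while ST against CK did not pass (0.43 ± 0.16, adjusted p = 0.0531). The only glycerol kinase, Ej00001868, had 98.96, 115 and 109.9 in MTST, 89.3, 93.7 and 96.1 in ST, and 79.4, 86.8 and 80.01 in CK, and was higher in MTST than in CK by 0.39 ± 0.08 (adjusted p = 0.0044).

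Of the 27 members without a GO term, 9 fell and 1 rose in ST against CK (33.3% and 3.7%), where 23.4% and 22.8% of all genes tested did. With plain TPM 5 fell and 6 rose (18.5% and 22.2%), where 10.6% and 52.8% of all genes did. Ej00017520 had 5.21, 7.02 and 6.67 in MTST, 9.57, 4.64 and 7.27 in ST, and 40.001, 35.6 and 40.4 in CK, the largest fall of any member in MTST against CK (-2.45 ± 0.20, adjusted p = 2.8e-05) and -2.33 ± 0.20 (adjusted p = 1.26e-05) in ST against CK. The libraries of MTST and ST overlapped in this gene. Ej00059399 had 284, 269 and 263 in MTST, 161, 125 and 129 in ST, and 363, 359.6 and 391 in CK, with -1.43 ± 0.10 (adjusted p = 3.76e-06) for ST against CK and 0.98 ± 0.10 (adjusted p = 0.000188) for MTST against ST. Ej00082411, second in level among all members, had 737, 775 and 710.04 in MTST, 451, 627 and 549 in ST, and 745, 731 and 922 in CK. It differed by -0.56 ± 0.14 (adjusted p = 0.00724) for ST against CK, which was not called with plain TPM (log2 difference -0.11, adjusted p = 0.447). Ej00032849 stood out by its rise in MTST alone, with 13.7, 14.4 and 18.4 in MTST, 8.56, 6.90 and 7.64 in ST, and 7.20, 7.001 and 8.94 in CK, which gave 0.92 ± 0.14 (adjusted p = 0.00139) for MTST against ST and 0.92 ± 0.14 (adjusted p = 0.000964) for MTST against CK.

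**Figure D4:**
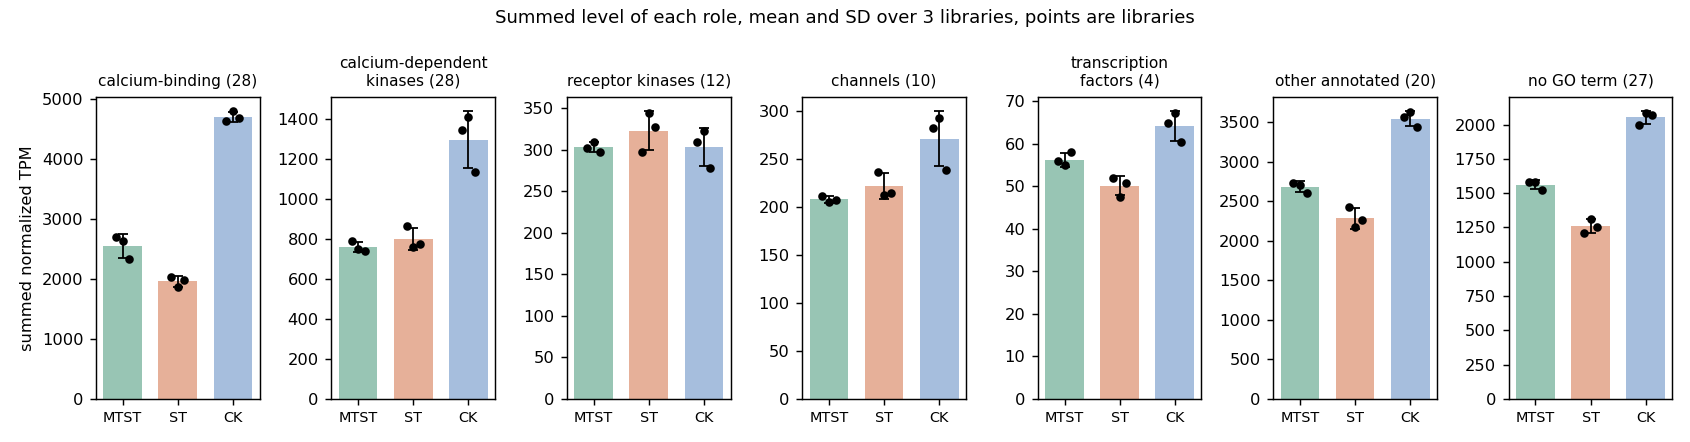
Summed normalized TPM (y axis, each panel with its own scale from 0) of the members of each role in MTST, ST and CK, with bars at the mean, error bars of 1 SD and points for the 3 libraries. The calcium-binding sum is 2555 in MTST, 1957 in ST and 4707 in CK, and the receptor kinase sum is 303 in MTST, 323 in ST and 303 in CK.

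Melatonin before salt went with higher levels of several calcium-binding members. For MTST against ST, 21 members rose and 14 fell, or 16.2% and 10.8%, near the 15.1% and 13.6% of all genes tested, and the median log2 difference was -0.0014, against -0.0019 over all genes. With plain TPM, 14 rose and 42 fell, where 7.9% of all genes rose and 29.8% fell. With a fold change of at least 2 in addition, 4 rose and 4 fell, where 2.16% of all genes rose and 4.79% fell. The libraries of MTST lay wholly above those of ST in 29 members and wholly below in 28, where 23.1% and 21.9% of all genes tested did so. The number of falls was 8 without MTST replicate 1, 6 without MTST replicate 2 and 7 without MTST replicate 3, and 4 of the 14 were called whichever library was left out, against 15 of the 21 rises. A large part of the rises were calcium-binding members. Of the 28, 10 rose and 3 fell (median 0.25), and 9 rose and 5 fell with plain TPM. With 1 library left out, 9 to 10 rose, and 1 fell without MTST replicate 1, MTST replicate 3 or any 1 of the 3 ST libraries. By level, 3 of 8 calcium-binding members with a mean level of 100 or more rose, where 46.5% of all genes tested at that level did. Of the 12 at 10 to 100, 6 rose, beside 18.2%, and of the 8 under 10, 1 rose, beside 6.32%. How much of these rises goes with level was not tested. The 4 largest rises in MTST against ST, Ej00019385, Ej00027061, Ej00068337 and Ej00049267, were all calcium-binding members described above. ST is part of both this comparison and ST against CK, so a low or high ST value moves a gene in opposite directions in them, and the counts are not independent.

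Other members fell in MTST against ST. Ej00056545, without a GO term, had 22.05, 20.3 and 14.3 in MTST, 47.8, 33.9 and 39.7 in ST, and 43.6, 47.4 and 37.2 in CK. MTST was below both other groups, with log2 differences of -1.07 ± 0.17 (adjusted p = 0.00163) against ST and -1.15 ± 0.17 (adjusted p = 0.000732) against CK. Ej00053977, also without a GO term, had 6.36, 4.38 and 5.28 in MTST, 18.7, 8.04 and 10.3 in ST, and 12.6, 12.96 and 19.8 in CK, and its difference of -1.004 ± 0.27 (adjusted p = 0.0215) was lost without MTST replicate 2 (adjusted p = 0.0776) or MTST replicate 3 (adjusted p = 0.0608). Ej00012334, a calcium-binding member annotated with trichome branching, had 30.2, 35.1 and 24.9 in MTST, 60.1, 46.8 and 39.5 in ST, and 76.6, 96.4 and 54.6 in CK. It differed by -0.67 ± 0.21 (adjusted p = 0.0399) for MTST against ST, which was lost without MTST replicate 1 or 3 or ST replicate 1 or 2 (adjusted p = 0.065 to 0.138), and by -1.28 ± 0.21 (adjusted p = 0.00138) for MTST against CK.

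Melatonin-treated salt-stressed leaves still differed from watered ones in many members. For MTST against CK, 46 members fell and 16 rose, or 35.4% and 12.3%, where 18.7% of all genes tested fell and 17.1% rose, and the median log2 difference was -0.17, against 0.01 over all genes. With plain TPM, 33 fell and 29 rose, where 10.9% of all genes fell and 29.7% rose. With a fold change of at least 2 in addition, 20 fell and 1 rose, where 4.55% of all genes fell and 4.09% rose. The libraries of MTST lay wholly below those of CK in 54 members and wholly above in 24, where 26.4% and 25.2% of all genes tested did so. Of the 46 falls, 35 were called whichever library was left out, and 10 of the 16 rises. By role, 16 of 28 calcium-binding members fell and 2 rose, 9 of 28 calcium-dependent protein kinases fell and 2 rose, and 2 of 12 receptor kinases fell and 2 rose. The small counts moved with single libraries. The calcium-binding rises were 1 without MTST replicate 1, CK replicate 1 or CK replicate 3, the kinase rises were 0 without MTST replicate 3 or CK replicate 1, 1 without MTST replicate 1, MTST replicate 2 or CK replicate 3 and 3 without CK replicate 2. The receptor kinase rises were 1 without MTST replicate 1, MTST replicate 2, CK replicate 1 or CK replicate 2, and the falls were 1 without any library but MTST replicate 1. The 9 kinase falls went to 5 without CK replicate 1 or CK replicate 2 and were also 5 with plain TPM. The whole set summed to 8235 ± 320.3 normalized TPM in MTST, 6988 ± 213 in ST and 12325 ± 352 in CK, or 0.818% ± 0.0226 in MTST, 0.820% ± 0.0420 in ST and 1.06% ± 0.0305 in CK of all TPM before the median-of-ratios factors. As a share of plain TPM, the libraries of MTST and ST overlapped.

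**Figure D5:**
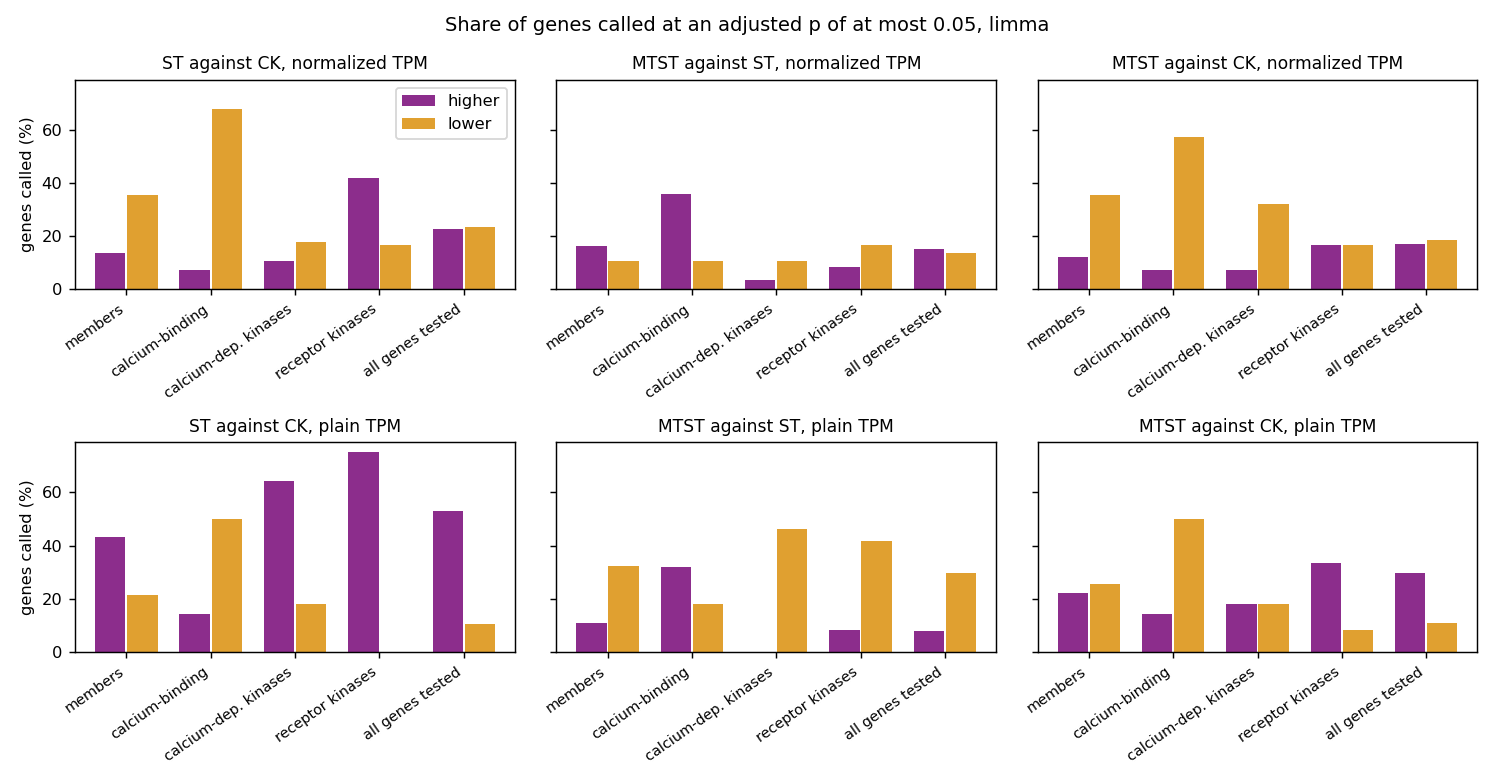
Share of genes called higher or lower by limma (y axis, percent) among all members, 3 of their roles and all genes tested, for ST against CK, MTST against ST and MTST against CK, with normalized TPM in the upper row and plain TPM in the lower row. In ST against CK, 67.9% of the calcium-binding members are lower with normalized TPM, against 23.4% of all genes tested, and with plain TPM the share of members that are higher is 43.1%, against 52.8%.

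The genes of the same map that are also on one of the other 4 maps were set beside the members. Of the 65 that were tested, 21 fell and 16 rose in ST against CK (median -0.02, and 12 fell and 30 rose with plain TPM), where 23.4% of all genes fell and 22.8% rose (10.6% and 52.8% with plain TPM), 12 fell and 12 rose in MTST against ST, and 18 fell and 15 rose in MTST against CK. The 41 that are also on the MAPK signaling map had 18 falls and 6 rises in ST against CK (median -0.23), or 10 and 14 with plain TPM. The 15 that are also on the fatty acid elongation map had 10 rises and 1 fall in ST against CK (median 1.07), or 13 and 0 with plain TPM, and the 9 that are also on the map of protein processing in the endoplasmic reticulum had 6 rises and 0 falls in MTST against ST (median 0.65), or 4 and 0 with plain TPM. The 13 tested genes with ADP binding outside the map, a term of intracellular immune receptors, had 3 falls and 1 rise in ST against CK, but 2 falls and 7 rises there with plain TPM, and 7 falls and 0 rises in MTST against CK, but 1 fall and 0 rises there with plain TPM. In MTST against CK, 18.7% of all genes fell and 17.1% rose, and 10.9% fell and 29.7% rose with plain TPM. In MTST against ST, 13.6% of all genes fell and 15.1% rose, and 29.8% fell and 7.9% rose with plain TPM. These lists are given as counts, and no list was tested against another. In leaf RNA of many cell types, fewer cells of a type and less RNA per cell cannot be told apart, and whether reads shared by near-identical gene copies were counted is not given in the sources used here, so members with the same terms may share reads. Strand was not stated either, and reads of an overlapping antisense gene cannot be told apart.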

How the data were processed

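Leaf RNA of 9 loquat samples was sequenced, 3 each of MTST, ST and CK. The methods name Trim-Galore, Trimmomatic, HISAT2 (with the JFZ loquat genome as reference) and Rsubread, and the authors deposited FPKM values per gene and library. Neither tool versions nor the treatment of reads shared by several genes is given there. The table also holds group means and the authors' own fold changes and p-values, which were not used.

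FPKM was rescaled to TPM and divided by median-of-ratios factors (0.965 to 1.02 in MTST, 1.15 to 1.20 in ST, 0.853 to 0.867 in CK), because plain TPM shifted the median of all genes. The count-based tool of the study's own differential test scales by median of ratios too. Values were compared as log2(value + 1) by limma (version 3.58.1, R version 4.3.3, eBayes with its trend option). The fit took all 9 libraries, with group as the only term, and the 23641 genes for which 3 or more libraries had a TPM of 1 or higher. All p-values of single genes are limma's, with Benjamini-Hochberg adjustment. FPKM values step by the worth of 1 read, which gave whole reads and a length for 31458 of 31458 genes above 0 (tolerance 1e-05 reads), and 99.979% to 99.984% of each library total. Replicates of a group differed by more than sampling noise (mean chi-square per gene 3.17 to 28.9). The scaling and fit were also run on simulated counts with known changes. These lacked the shift in the share of the most abundant genes seen in ST, so that run does not cover it.

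The members and lists were chosen with earlier results of these data known. Members named by rule were, for ST against CK, up to 2 largest rises and 2 largest falls of each planned role among called members with a mean level of at least 5, the same sign with plain TPM and no overlap between the groups, then the 4 largest rises and falls of each other comparison, and the 5 of highest mean level. The roles used here, split by GO terms, and the other members named were chosen after the values were seen. Alternatives were plain TPM, FPKM as deposited, a pseudocount of 0.1, no filter on low values, limma-voom on recovered reads (in which counts are weighted by their precision), a fit of 6 libraries, a replicate block, a fold change of at least 2 and leaving out each library. Groups of 3 are too small for a test of single samples that stand apart. Tables were made with pandas 2.3.3 and numpy 2.4.6, and figures with matplotlib 3.10.9, under Python 3.11.15.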

Additional observations from a re-analysis of the deposited data

How the results depend on the processing

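For ST against CK, the members that rose numbered 56 with plain TPM, 45 with FPKM as deposited and 5 with a fold change of at least 2 (18 in the main analysis), and those that fell numbered 28 with plain TPM and 26 with the fold change. For MTST against ST, 4 rose with the fold change, and 42 fell with plain TPM, 28 with FPKM and 4 with the fold change. For MTST against CK, 29 rose with plain TPM and 29 with FPKM, 1 rose with the fold change and 20 fell with it. Leaving out 1 library gave 15 to 18 rises and 41 to 51 falls for ST against CK, 15 to 22 rises and 6 to 11 falls for MTST against ST, and 11 to 15 rises and 36 to 49 falls for MTST against CK. The cause of these differences was not tested, except that plain TPM and FPKM move all genes together. The median log2 difference of the members changed sign with plain TPM (0.289 for ST against CK and 0.0268 for MTST against CK) and with FPKM (0.212 for ST against CK and 0.0335 for MTST against CK). That for MTST against ST, near 0 at -0.0014, was -0.231 with plain TPM and -0.147 with FPKM, and with 1 library left out ran from -0.0348 without ST replicate 2 to 0.0308 without ST replicate 1.

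Counts stayed within 1.5 times of the main ones with a pseudocount of 0.1, without the filter, with limma-voom and in a fit of the 6 libraries. Same-numbered libraries of different groups had deviations correlated at -0.15 to 0.08, so the replicate numbers were not taken to pair them. With the number as a replicate block, 17 rose and 45 fell for ST against CK, 20 rose and 15 fell for MTST against ST, and 15 rose and 44 fell for MTST against CK. Of 35 values of members named by rule, 28 kept their direction and their side of the threshold under every alternative, and 0 of the 455 recomputed values changed direction. Apart from those named for their level, these values were chosen as called, without overlap and with the same sign under plain TPM. The lack of reversals was thus partly fixed by the rule and does not extend to the other members. Members under a mean level of 10 rest on few reads, and small changes among them could be missed.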
